A study of Saccharomyces cerevisiae with 16 samples.

Results

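The response of ribosome footprints to urea was compared between yeast cells with eIF4B lacking its N-terminal domain (∆ntd) and cells with full-length eIF4B (WT). For each gene, the quantity tested was the interaction, the log2 change of footprints with urea in ∆ntd cells minus the log2 change with urea in WT cells. All 8 Riboseq libraries entered the test. Of 6692 genes in the table, 5286 had enough footprints to be tested, and no gene was chosen by its response. A positive interaction means that footprints rose more, or fell less, with urea in ∆ntd cells than in WT cells. Each rise or fall is relative to the other genes of the library and does not measure the total amount of translation. The study reports that urea lowered the ratio of polysomes to monosomes more in ∆ntd cells than in WT cells.

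Saccharomyces cerevisiae was grown in SD, a synthetic drop-out medium with glucose and ammonium sulfate, and harvested in mid-log phase. The 4 groups were ∆ntd cells in SD with 3% urea, ∆ntd cells in SD without additive, WT cells in SD with 3% urea and WT cells in SD without additive, with 2 cultures of each. A Riboseq and an RNAseq library were made from each. By the study's methods both strains are haploids without chromosomal TIF3, the gene of eIF4B. They carry TIF3 or its ∆ntd allele with a hexahistidine tag, under the native promoter, on a single-copy plasmid that also restores prototrophy. Each genotype was therefore studied in 1 strain background, and reads on TIF3 come from the plasmid. The WT group is labelled BY4741, and the study's strain list gives both strains as Mata.

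eIF4B is an initiation factor that assists the helicase eIF4A and the loading of mRNAs onto the small ribosomal subunit, and its N-terminal domain binds that subunit. Riboseq sequences the mRNA fragments that ribosomes protect from nuclease, so the footprint count of a gene depends both on how much of its mRNA there is and on how many ribosomes each mRNA carries. Translation efficiency (TE), the footprint level relative to the RNA level, separates them. Urea is a nitrogen source for yeast, which hydrolyse it with urea amidolyase, and at high concentration it disturbs the folding of proteins.

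Between 3067506 and 17380262 footprints were counted per Riboseq library, with the fewest in WT cells in urea, and between 1888481 and 5169546 reads per RNAseq library. The ∆ntd cultures in urea differed from each other more than the cultures of any other group did. Their biological coefficient of variation, the spread between cultures beyond counting error, was 0.241 in Riboseq, against 0.0408 to 0.056 in the other 3 groups and 0.0319 to 0.0569 in RNAseq. TIF3 was read in every library, at 3698 and 5210.5 CPM in ∆ntd cells in urea, 2882 and 2849.5 in ∆ntd cells in SD, 2925 and 3139.9 in WT cells in urea and 2757 and 2411 in WT cells in SD. Its interaction of 0.41 (standard error 0.23, adjusted p = 0.285) did not pass the test. Footprints of STE2, the pheromone receptor of a cells, stood at 336 to 564 CPM in all libraries, whereas STE3 and MF(ALPHA)1 of alpha cells reached at most 2.46 CPM. Here CPM are counts scaled to a common library size with the TMM method, and a level is never compared between genes.

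The interaction passed the test in 442 genes. It was positive in 260 genes, 4.92% of those tested, and negative in 182 genes, 3.44% of those tested (edgeR's quasi-likelihood test, Benjamini-Hochberg adjusted p under 0.05). Over all genes tested the median interaction was 0.04, and the middle range between the quartiles ran from -0.31 to 0.44. An unadjusted p under 0.05 was reached by 1544 of the 5286 genes, and such counts of the lists below are to be read beside it. Likewise, counts of DESeq2's Wald test are to be read beside the 695 genes that it called in all. The genes with a positive call had a median interaction of 0.99, and in 169 of them footprints rose with urea in ∆ntd cells without a called change in WT cells. In another 48 footprints fell in WT cells without a called change in ∆ntd cells, and in 12 they rose in ∆ntd cells and fell in WT cells. The genes with a negative call had a median of -0.92. In 85 of these footprints fell with urea in ∆ntd cells without a called change in WT cells, in 53 they rose in WT cells without a called change in ∆ntd cells, and in 22 they fell in ∆ntd cells and rose in WT cells. Since the interaction is the difference of ∆ntd from WT in urea minus that in SD, its parts are given as a description of genes chosen on it. The median difference was 1.03 in urea and -0.01 in SD over the positive calls, -0.98 in urea and 0.02 in SD over the negative calls, and 0.01 in urea and -0.01 in SD over all genes tested.

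**Figure D1:**
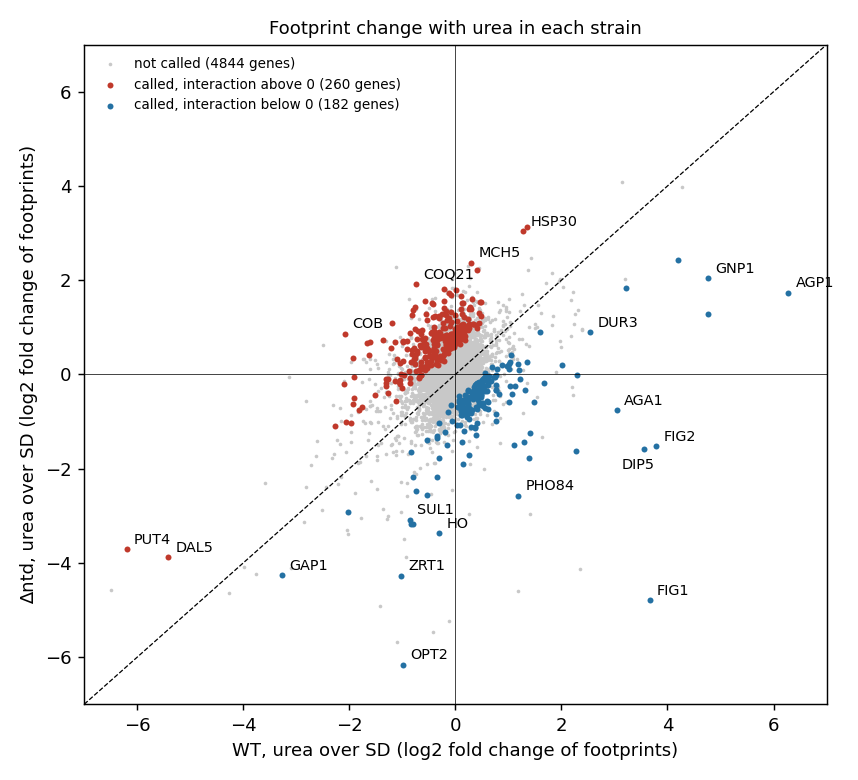
Each point is a gene, placed by its log2 fold change of footprints with urea in WT cells (horizontal axis) and in ∆ntd cells (vertical axis), with 260 genes of positive interaction in red, 182 of negative interaction in blue and the rest in grey. On the dashed line both strains respond alike. DIP5 and PHO84 rose in WT cells and fell in ∆ntd cells, and ZRT1 and PUT4 fell in both strains to unlike extents.

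All 442 genes had the same sign of the interaction in each of the 16 ways of taking 1 culture per group, as did 48.9% of all genes tested. Their calls depended on which culture was left out. A fit without a ∆ntd urea culture leaves that group 1 library, so its spread, the largest, does not enter the test. Calls kept in such a fit are therefore no support. Without ∆ntd urea culture 1 the test called 2589 genes and without ∆ntd urea culture 2 it called 1527, whereas without any 1 of the other 6 cultures it called 12 to 15 genes. A total of 11 genes were called whichever culture was left out, all with a negative interaction: DIP5, AGP1, GNP1, AGA1, FIG2, PHO84, ZRT1, SUL1, SER3, HO and PDH1. OPT2 lost its call without WT urea culture 1. Each of the other 430 called genes lost its call without 5 or all of those 6 cultures, with no change of sign, and such p-values without a culture are given with the genes. The scaling of libraries set the balance of directions. Of the called genes 58.8% had a positive interaction, against 49.9% with DESeq2 size factors and 21.3% with library totals alone, which set the median interaction of all genes at -0.28.

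Permeases of amino acids held several of the most negative interactions. The list comprised 20 tested permeases that the SPS sensor of external amino acids is known to control, or that are related to them. Of these 8 were called with a negative interaction and 0 with a positive one in edgeR's test, with a median of -0.71. At an unadjusted p under 0.05 the counts were 12 negative and 1 positive, and DESeq2's Wald test called 9 negative and 1 positive. DIP5 encodes the permease of dicarboxylic amino acids (chromosome XVI, 41043 to 42869 on the plus strand, R64 genome). Its footprints stood at 45.5 and 57.3 CPM in ∆ntd cells in urea, 158 and 148 in ∆ntd cells in SD, 317 and 326 in WT cells in urea and 26.5 and 28.4 in WT cells in SD. They were lower in urea than in SD in ∆ntd cells and higher in urea than in SD in WT cells, with no overlap of the groups. The change was -1.58 in ∆ntd cells and 3.55 in WT cells, which gave an interaction of -5.12 (standard error 0.19, adjusted p = 1.75e-05).

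AGP1 encodes a broad amino acid permease and GNP1 the high-affinity glutamine permease. AGP1 (chromosome III, 76018 to 77919 on the minus strand) had 158 and 193 CPM in ∆ntd cells in urea, 54.7 and 50.8 in ∆ntd cells in SD, 267 and 247 in WT cells in urea and 2.94 and 3.66 in WT cells in SD. Its footprints rose with urea in both strains, and WT cells held fewer than ∆ntd cells in SD and more in urea. The interaction was -4.55 (standard error 0.21, adjusted p = 6.53e-05). GNP1 (chromosome IV, 1466453 to 1468444 on the minus strand) followed the same order of groups, at 277 and 250 CPM in ∆ntd cells in urea, 63.7 and 64.6 in ∆ntd cells in SD, 416 and 431 in WT cells in urea and 15.5 and 15.6 in WT cells in SD. Its interaction was -2.73 (standard error 0.14, adjusted p = 7.44e-05). MUP1, the high-affinity methionine permease, had 34.8 and 53.8 CPM in ∆ntd cells in urea, 55.6 and 43.9 in ∆ntd cells in SD, 111 and 100.2 in WT cells in urea and 34.7 and 32.2 in WT cells in SD. In ∆ntd cells its 4 cultures overlapped, and in WT cells both urea cultures lay above both SD cultures. The interaction was -1.84 (standard error 0.29, adjusted p = 0.0195), with an adjusted p of up to 0.141 without a culture. BAP3, a permease of branched-chain amino acids, was at or under 3 counts in both WT cultures in SD, so that no fold against that group is given. The list lost no more than 5 of its 8 calls without any culture, and kept at least DIP5, AGP1 and GNP1.

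RNA of these genes differed as well. The RNA interaction was -4.87 for DIP5 (adjusted p = 2.11e-23), -2.40 for AGP1 (adjusted p = 1.1e-11) and -1.67 for GNP1 (adjusted p = 4.77e-09), and these held whichever culture was left out. DIP5 RNA stood at 65.0 and 70.5 CPM in ∆ntd cells in urea, 224 and 234 in ∆ntd cells in SD, 403 and 429.9 in WT cells in urea and 51.5 and 44.7 in WT cells in SD. The pattern over the groups was that of its footprints, and the TE interaction was -0.26 (adjusted p = 0.571). AGP1 and GNP1 had TE interactions of -2.15 and -1.06 that passed (adjusted p = 0.0286 each) in a fit that takes the libraries as independent. With a term for each culture neither passed. Those TE calls were lost without any of the 6 cultures that are not ∆ntd in urea, except that of AGP1 without WT SD culture 2, with adjusted p-values of up to 0.255.

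Genes of mating formed the second group of large negative interactions. Haploid yeast sense the pheromone of the other mating type through a MAP kinase cascade and the factor Ste12, which binds the pheromone response element in front of its targets, and agglutinins then join the mating cells. Of 32 tested genes that pheromone induces or mating uses, 11 were called with a negative interaction and 0 with a positive one in edgeR's test, with a median of -0.66 (-1.17 without ∆ntd urea culture 1), beside 0.04 over all genes. At an unadjusted p under 0.05 there were 17 negative and 3 positive genes, and DESeq2's Wald test called 9 negative and 0 positive. The list was drawn up with FIG2, AGA1 and AGA2 known from the study, so its direction is not independent of earlier results. Within 500 bases before the start codon, the letters TGAAACA of the response element, on either strand, were found for 21 of the 32 genes and for 8 of the 11 called, against 12% of 5984 such regions. The list was drawn up from genes of this response, so the excess is no result about the calls. Among all genes called, the letters were found for 8.08% of the positive and 16.5% of the negative calls, against 11.8% of genes tested. The windows below are shown because they hold the element in front of called mating genes, whose footprints follow. They are read 5′ to 3′ on the gene's strand from the RefSeq R64 genome, with the element in capitals. The distance in each line is the number of bases between the element and the start codon, and the window itself starts further away.
FIG2 (chrIII:267070-267096, plus strand, starting 347 nt before the start codon): aaaacaacacTGAAACAaacttattgc
AGA1 (chrXIV:703487-703513, plus strand, starting 195 nt before the start codon): cataattttcTGAAACAatattaaaac
FUS1 (chrIII:71633-71659, plus strand, starting 153 nt before the start codon): gtctgtaattTGAAACAaataacgtaa
BAR1 (chrIX:322148-322174, plus strand, starting 177 nt before the start codon): ccagctattcTGAAACAcaccacatta
PRM1 (chrXIV:110737-110763, plus strand, starting 163 nt before the start codon): gtttcaatacTGTTTCAatactgtttc
The element is in reverse orientation in the window of PRM1. A match is a description of the letters and was not tested as a binding site.

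FIG2 and AGA1 were called whichever culture was left out. FIG2 encodes a cell wall adhesin of mating cells (chromosome III, 267434 to 272263 on the plus strand). Its footprints stood at 0.643 and 0.730 CPM in ∆ntd cells in urea, 2.19 and 1.78 in ∆ntd cells in SD, 21.5 and 13.5 in WT cells in urea and 1.25 and 1.33 in WT cells in SD. Both WT cultures in urea lay above all 6 other cultures, and both ∆ntd cultures in urea lay below them, at 6 and 4 counts. The interaction was -5.31 (standard error 0.51, adjusted p = 0.00354). AGA1, the anchor subunit of a-agglutinin (chromosome XIV, 703699 to 705876 on the plus strand), had 17.6 and 16.6 CPM in ∆ntd cells in urea, 31.7 and 26.6 in ∆ntd cells in SD, 123 and 126 in WT cells in urea and 13.8 and 16.2 in WT cells in SD. Urea set both strains apart without overlap, downward in ∆ntd cells (-0.76, adjusted p = 0.00863) and upward in WT cells (3.05, adjusted p = 1.42e-05). The interaction was -3.81 (standard error 0.20, adjusted p = 7.44e-05).

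FIG2 RNA did not follow the rise of its footprints in WT cells. It stood at 13.2 and 19.7 CPM in ∆ntd cells in urea, 23.7 and 36.2 in ∆ntd cells in SD, 13.1 and 15.6 in WT cells in urea and 15.6 and 15.3 in WT cells in SD. The WT cultures in urea did not lie above those in SD, and the RNA interaction was -0.77 (adjusted p = 0.175). In ∆ntd cells both urea cultures lay below both SD cultures, in RNA as in footprints. The TE interaction of FIG2, -4.52 (standard error 0.69, adjusted p = 0.0286), was the most negative of the 32 TE calls. That call was lost without any culture that is not ∆ntd in urea. With limma and a variance for each group its adjusted p was 0.0725. AGA1 had an RNA interaction of -2.26 (adjusted p = 0.000442) and a TE interaction of -1.54 (adjusted p = 0.189).

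AGA2, the binding subunit of a-agglutinin, had 13.6 and 4.38 CPM in ∆ntd cells in urea, 26.1 and 26.0 in ∆ntd cells in SD, 44.0 and 43.5 in WT cells in urea and 15.2 and 20.8 in WT cells in SD. The ∆ntd cultures in urea lay far from each other and below all other cultures. Its interaction was -2.73 (standard error 0.50, adjusted p = 0.0251). BAR1, the protease that degrades alpha-factor, had 163 and 118 CPM in ∆ntd cells in urea, 219.9 and 203 in ∆ntd cells in SD, 377 and 329 in WT cells in urea and 170.0 and 181 in WT cells in SD. It fell with urea in ∆ntd cells and rose in WT cells, with an interaction of -1.597 (standard error 0.22, adjusted p = 0.0132). FUS1, a membrane protein of cell fusion that was chosen after its values were seen, had 6.43 and 6.57 CPM in ∆ntd cells in urea, 6.11 and 6.89 in ∆ntd cells in SD, 21.7 and 31.0 in WT cells in urea and 5.51 and 4.99 in WT cells in SD. Urea left no called change in ∆ntd cells (-0.01, adjusted p = 0.984) beside a rise in WT cells (2.30, adjusted p = 0.00055). PRM1, also chosen after its values were seen, is a membrane protein of the same step and had 0.536 and 0.547 CPM in ∆ntd cells in urea, 1.15 and 2.13 in ∆ntd cells in SD, 6.40 and 7.58 in WT cells in urea and 1.04 and 1.83 in WT cells in SD. The WT cultures in urea lay above all others, and the interaction was -3.90 (standard error 0.66, adjusted p = 0.022). FIG1 had 0 footprints in both ∆ntd cultures in urea and is given no fold. Without a culture that is not ∆ntd in urea, the adjusted p reached 0.147 for AGA2, 0.114 for BAR1, 0.0887 for FUS1 and 0.14 for PRM1, and 2 or 3 genes of the list kept a call. Of 34 mating genes tested in RNA, 10 had a negative RNA interaction and 0 a positive one, in an assay where 6.07% of all genes tested had a negative call and 4.37% a positive one.

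**Figure D2:**
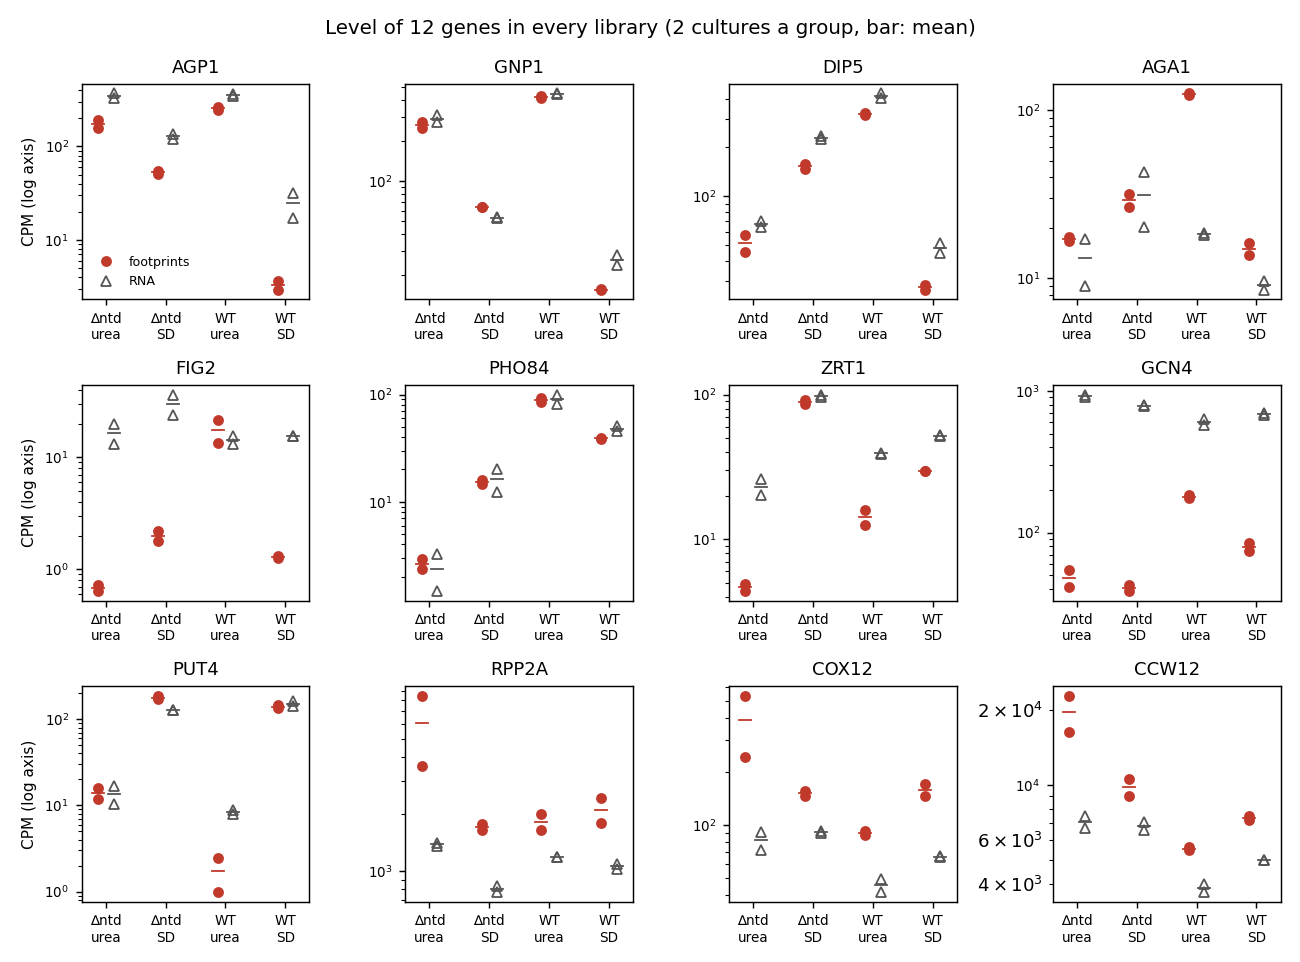
Level of 12 genes in each library, with footprints as filled red circles and RNA as open grey triangles, in CPM on a log axis of its own in each panel, for ∆ntd in urea, ∆ntd in SD, WT in urea and WT in SD, with 2 cultures a group and a bar at their mean. FIG2 footprints reached 21.5 and 13.5 CPM in WT cells in urea with no such rise in RNA, and the panels of RPP2A and COX12 show the distance between both ∆ntd cultures in urea.

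PHO84, ZRT1 and SUL1, transporters of phosphate, zinc and sulfate, fell with urea in ∆ntd cells. PHO84, the high-affinity phosphate transporter (chromosome XIII, 24037 to 25800 on the minus strand), had 2.36 and 2.92 CPM in ∆ntd cells in urea, 16.1 and 14.8 in ∆ntd cells in SD, 85.5 and 92.3 in WT cells in urea and 39.7 and 38.1 in WT cells in SD. It fell with urea in ∆ntd cells and rose in WT cells with no overlap of the groups, and the interaction was -3.76 (standard error 0.21, adjusted p = 9.49e-05). Its RNA moved alike, with an RNA interaction of -3.67 (adjusted p = 1.51e-07) and a TE interaction of -0.09 (adjusted p = 0.981). PHO89, the sodium-coupled phosphate transporter, had 0.321 and 0.912 CPM in ∆ntd cells in urea, 2.19 and 1.63 in ∆ntd cells in SD, 7.64 and 7.26 in WT cells in urea and 2.56 and 3.16 in WT cells in SD, which is 3 and 5 counts in the ∆ntd cultures in urea. Its interaction was -3.15 (standard error 0.55, adjusted p = 0.022). Of 24 tested genes of phosphate uptake and polyphosphate, 4 were called negative (PHO84, PHO89, PHO5 and PHO3) and 1 positive (PHM8), with a median of -0.39. Their inducer Pho4 binds CACGTG, and these letters lie within 500 bases of the start codon in 14 of the 24 genes, against 6.23% of 5984 regions. As the list was drawn up from genes of this pathway, the excess is no result about the calls. Among all genes called, 8.08% of the positive and 7.69% of the negative calls held CACGTG, against 6.34% of genes tested. The windows of PHO84, PHO5 and PHO89 are shown as the called genes that hold it. Here too the distance is the number of bases between the element and the start codon, and the window itself starts further away.
PHO84 (chrXIII:26220-26246, minus strand, starting 430 nt before the start codon): ttaatagttcCACGTGgacgtgttatt
PHO5 (chrII:431188-431214, minus strand, starting 247 nt before the start codon): ttggcactcaCACGTGggactagcaca
PHO89 (chrII:798829-798855, minus strand, starting 317 nt before the start codon): gacaatgcagCACGTGggagacaaata
Capitals mark CACGTG, which reads the same on both strands. PHO5 shares 21.5% of its 28-nt windows with another gene, so its counts are uncertain. Of the list only PHO84 kept its call without a culture that is not ∆ntd in urea, and the adjusted p of PHO89 then reached 0.143.

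ZRT1, the high-affinity zinc transporter (chromosome VII, 20978 to 22108 on the plus strand), had 4.39 and 4.93 CPM in ∆ntd cells in urea, 92.1 and 86.1 in ∆ntd cells in SD, 15.9 and 12.5 in WT cells in urea and 29.4 and 29.6 in WT cells in SD. It fell with urea in both strains, and ∆ntd cells held more than WT cells in SD and less than WT cells in urea, without overlap. The change was -4.27 in ∆ntd cells and -1.03 in WT cells, with an interaction of -3.24 (standard error 0.22, adjusted p = 0.000379). The RNA interaction was -1.66 (adjusted p = 4.77e-07) and the TE interaction -1.58 (adjusted p = 0.0286), a TE call that was lost without any culture that is not ∆ntd in urea. ZRT1 was the 1 called gene of 11 tested genes of the zinc list. SUL1, a high-affinity sulfate permease, had 10.9 and 14.1 CPM in ∆ntd cells in urea, 109 and 99.5 in ∆ntd cells in SD, 87.9 and 92.0 in WT cells in urea and 161 and 166 in WT cells in SD. Both strains fell and the ∆ntd cultures in urea lay far below the rest, with an interaction of -2.22 (standard error 0.18, adjusted p = 0.00162).

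OPT2, an oligopeptide transporter (chromosome XVI, 924304 to 926937 on the minus strand), was at the floor of 3 counts in ∆ntd cells in urea, with 2 and 2 counts there, 224 and 269 in ∆ntd cells in SD, 18 and 7 in WT cells in urea and 117 and 98 in WT cells in SD. Set at 3 counts per library, ∆ntd cells in urea were at least 46.6-fold lower than in SD, and their ratio of urea to SD was at least 22.3-fold lower than that of WT cells. Its call was lost without WT urea culture 1, with an adjusted p of 0.0758. HO encodes the mating type switching endonuclease and had 4.71 and 8.21 CPM in ∆ntd cells in urea, 67.0 and 61.4 in ∆ntd cells in SD, 82.8 and 87.4 in WT cells in urea and 107 and 103 in WT cells in SD. It fell in ∆ntd cells (-3.37, adjusted p = 8.17e-05), with an interaction of -3.06 (standard error 0.27, adjusted p = 0.0019). In WT cells both urea cultures lay below both SD cultures, but that change was not called (-0.31, adjusted p = 0.322). RNA of HO gave an interaction of -3.24 (adjusted p = 8.67e-12). SER3, the first enzyme of serine synthesis, had 115 and 113 CPM in ∆ntd cells in urea, 316 and 303 in ∆ntd cells in SD, 462 and 432 in WT cells in urea and 403 and 419.6 in WT cells in SD. Both ∆ntd cultures in urea lay below all other cultures, and the interaction was -1.56 (standard error 0.13, adjusted p = 0.00162). PDH1, a mitochondrial protein of propionate metabolism that was chosen after its values were seen, had 2.89 and 2.74 CPM in ∆ntd cells in urea, 6.87 and 9.02 in ∆ntd cells in SD, 39.8 and 38.6 in WT cells in urea and 18.0 and 18.4 in WT cells in SD. It fell with urea in ∆ntd cells and rose in WT cells, with an interaction of -2.60 (standard error 0.26, adjusted p = 0.0037).

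Genes under nitrogen catabolite repression were called in both directions. Cells with a good nitrogen source repress these genes of scavenging, and GATA factors that bind GATAAG activate them when nitrogen is poor. Of 39 tested genes, 9 were called negative and 5 positive, with a median of -0.29. Without ∆ntd urea culture 1 the median was -0.03, with 13 calls in each direction, and over the 16 choices of 1 culture per group it reached 0.11. PUT4, the proline permease, had 11.9 and 15.9 CPM in ∆ntd cells in urea, 187 and 169.8 in ∆ntd cells in SD, 2.48 and 0.989 in WT cells in urea and 147 and 133 in WT cells in SD. PUT4 fell in both strains, further in WT cells (-6.20) than in ∆ntd cells (-3.70), and the interaction was 2.50 (standard error 0.37, adjusted p = 0.016). DAL5, the permease of allantoate, had 4.18 and 7.66 CPM in ∆ntd cells in urea, 79.7 and 86.7 in ∆ntd cells in SD, 7.02 and 6.27 in WT cells in urea and 286 and 287.66 in WT cells in SD. It too fell further in WT cells, which held more of it in SD than ∆ntd cells did, with an interaction of 1.54 (standard error 0.33, adjusted p = 0.0364). DAL4, the allantoin permease, had 1.07 and 1.09 CPM in ∆ntd cells in urea, 10.6 and 9.31 in ∆ntd cells in SD, 6.61 and 5.61 in WT cells in urea and 11.4 and 10.0 in WT cells in SD. Here the ∆ntd cultures in urea lay below all others, and the interaction was -2.39 (standard error 0.34, adjusted p = 0.0137).

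DUR3, the transporter of urea itself, was chosen after its values were seen and had 95.9 and 82.8 CPM in ∆ntd cells in urea, 47.5 and 48.5 in ∆ntd cells in SD, 200.2 and 178 in WT cells in urea and 29.2 and 35.6 in WT cells in SD. It rose with urea in both strains, less in ∆ntd cells (0.90) than in WT cells (2.55), and the interaction was -1.65 (standard error 0.19, adjusted p = 0.00799). For DUR1,2, the urea amidolyase, the changes were 1.57 in ∆ntd cells and 2.18 in WT cells, and the interaction of -0.60 did not pass the test (adjusted p = 0.139). The letters GATAAG lie within 500 bases of the start codon in 27 of the 39 genes and in 11 of the 14 called, against 22.8% of 5984 regions. The list was drawn up from genes under these factors, so this excess is no result about the calls. Over all lists and other genes, the letters were found for 23.5% of the positive and 25.3% of the negative calls, against 22.7% of genes tested. GAP1, the general amino acid permease, was also chosen after its values were seen and had 156 and 217 CPM in ∆ntd cells in urea, 3692 and 3435 in ∆ntd cells in SD, 296 and 334 in WT cells in urea and 3132 and 2982 in WT cells in SD. GAP1 footprints fell in both strains, further in ∆ntd cells, with an interaction of -0.98 (standard error 0.23, adjusted p = 0.0412). A window each of DAL5 and GAP1 shows the element, in capitals, in front of a positive and a negative call. The distance is again the number of bases between the element and the start codon, and the window itself starts further away.
DAL5 (chrX:719263-719289, plus strand, starting 387 nt before the start codon): atcatttgctGATAAGgtgctacagcg
GAP1 (chrXI:514710-514736, plus strand, starting 337 nt before the start codon): tttggtaactGATAAGattgttaaatg
Without a culture that is not ∆ntd in urea, the adjusted p reached 0.101 for PUT4, 0.167 for DAL5, 0.136 for DAL4, 0.0859 for DUR3 and 0.182 for GAP1, and at most 2 genes of the list kept a call.

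Most called glycosylation genes had a negative interaction. Proteins bound for the cell surface receive sugar chains in the ER, which mannosyltransferases of the Golgi extend. Of 58 tested genes of O-mannosylation and N-glycosylation, 13 were called negative and 1, DPM1, positive, with a median of -0.54 in footprints and -0.10 in RNA. In RNA 7 were called negative, and the TE interaction called 1 gene, MNN1, negative and 0 positive. MNN1, the alpha-1,3-mannosyltransferase of the Golgi, had 58.2 and 53.1 CPM in ∆ntd cells in urea, 93.3 and 93.4 in ∆ntd cells in SD, 141 and 121 in WT cells in urea and 99.8 and 98.5 in WT cells in SD. Both ∆ntd cultures in urea lay below all others. The interaction was -1.15 (standard error 0.16, adjusted p = 0.0119), with an RNA interaction of -0.11 (adjusted p = 0.605) and a TE interaction of -1.04 (adjusted p = 0.0286). ALG5, which makes dolichol-phosphate glucose, had 12.6 and 6.93 CPM in ∆ntd cells in urea, 30.9 and 27 in ∆ntd cells in SD, 26.4 and 27.4 in WT cells in urea and 30.0 and 29.9 in WT cells in SD. Its interaction was -1.35 (standard error 0.31, adjusted p = 0.042). FKS1, the catalytic subunit of glucan synthase, belongs to the list of the cell wall and had an interaction of -0.92 (standard error 0.15, adjusted p = 0.0211). That list had 5 positive and 4 negative calls among 62 tested genes. CCW12, a mannoprotein of the wall, was the largest of its positive calls, at 16346 and 22844 CPM in ∆ntd cells in urea, 10574 and 8995 in ∆ntd cells in SD, 5628 and 5448 in WT cells in urea and 7498 and 7244 in WT cells in SD, with an interaction of 1.41 (standard error 0.24, adjusted p = 0.022). No call of either list held without a culture that is not ∆ntd in urea, where the adjusted p reached 0.104 for MNN1, 0.181 for ALG5, 0.143 for FKS1 and 0.143 for CCW12. After removal of a trend with coding length, 6 glycosylation genes kept a negative call.

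Called ribosomal proteins had positive interactions, and called factors that assemble ribosomes had negative ones. Of 82 tested proteins of the large cytosolic subunit 14 were called positive and 0 negative in edgeR's test, with a median of 0.55, and of 57 of the small subunit 16 were called positive and 0 negative, with a median of 0.54. At an unadjusted p under 0.05 the counts were 47 and 2 in the large and 35 and 0 in the small subunit, and DESeq2's Wald test called 34 and 1 and 25 and 0. Median footprint changes were 0.65 and 0.62 in ∆ntd cells and 0.07 and 0.08 in WT cells. RNA interactions had smaller positive medians of 0.20 and 0.18, and 25 and 19 positive RNA calls. RPP2A, an acidic stalk protein, had 3617 and 8469 CPM in ∆ntd cells in urea, 1786 and 1659 in ∆ntd cells in SD, 1645 and 2006 in WT cells in urea and 2451 and 1788 in WT cells in SD. Both ∆ntd cultures in urea stood above all others and far apart from each other. The interaction was 2.03 (standard error 0.49, adjusted p = 0.0464). RPS14A, of the small subunit, had an interaction of 1.77 (standard error 0.41, adjusted p = 0.0405), but shares 23.3% of its 28-nt windows with its paralog. With all paralogs counted by unique reads, the share of each copy is uncertain.

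These calls had narrow support over the cultures. Without ∆ntd urea culture 1 the large subunit list had 50 positive and 12 negative calls, without ∆ntd urea culture 2 it had 64 and 2, and without any of the other 6 cultures 0 and 0. For the small subunit these counts were 38 and 10, 39 and 0, and at most 1 and 0. In the same settings the adjusted p of RPP2A reached 0.195. Both lists hold short genes, with median coding lengths of 459 and 432 nt, and with a trend on coding length removed 1 and 0 positive calls were left. Of the elongation and termination factors, 3 of 16 were called positive, EFB1 (elongation factor 1 beta, interaction 0.98 (standard error 0.18, adjusted p = 0.0261)), HYP2 (eIF5A, 0.95) and STM1. Their list did not lean to the positive side, with a median of -0.06 and 7 of 16 genes above 0. It had 5 positive and 3 negative genes at an unadjusted p under 0.05, and DESeq2's Wald test called 4 positive and 2 negative. Of 33 tested initiation factors 0 were called in edgeR's test, with a median of -0.11. At an unadjusted p under 0.05 there were 1 positive and 2 negative, and DESeq2's Wald test called 1 positive and 1 negative.

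Among 144 tested factors of ribosome biogenesis, 17 were called negative and 0 positive in edgeR's test (49 and 1 at an unadjusted p under 0.05, 27 and 0 by DESeq2's Wald test). The median was -0.29 in footprints and -0.11 in RNA. RNA had 6 negative calls among the 144 genes, in an assay where 6.07% of all genes tested had a negative call. RRP12, an export factor of both subunits, had 83.8 and 72.6 CPM in ∆ntd cells in urea, 154 and 147 in ∆ntd cells in SD, 141 and 139 in WT cells in urea and 115 and 118 in WT cells in SD. It fell with urea in ∆ntd cells (-0.95, adjusted p = 0.00116), and the interaction was -1.21 (standard error 0.15, adjusted p = 0.00829). In WT cells both urea cultures lay above both SD cultures, but that change was not called (0.26, adjusted p = 0.177). ENP2, a factor of small subunit assembly, had 43.8 and 44.7 CPM in ∆ntd cells in urea, 70.1 and 70.3 in ∆ntd cells in SD, 61.3 and 72.2 in WT cells in urea and 44.9 and 47.9 in WT cells in SD. Both ∆ntd cultures in urea lay near those of WT in SD and below the other groups, and the interaction was -1.18 (standard error 0.16, adjusted p = 0.0129). Without ∆ntd urea culture 1 the list had 20 positive and 60 negative calls, without ∆ntd urea culture 2 it had 1 and 67, and without any other culture 0 of either. There the adjusted p reached 0.0873 for RRP12 and 0.106 for ENP2. With a trend on coding length removed, 5 negative calls were left. Of 20 cytosolic aminoacyl-tRNA synthetases 4 were called negative, GLN4, MES1, CDC60 and ILS1, beside 3.44% of all genes tested. The list as a whole had a median of -0.06, with 8 of the 20 genes above 0. That median ran from -0.34 to 0.20 over the 16 choices of 1 culture per group, and was 0.14 without ∆ntd urea culture 1.

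Genes of respiration leaned to the positive side. The respiratory chain is built from proteins of the nucleus and of the mitochondrial genome, and feeds the ATP synthase. Of 44 tested nuclear genes 17 were called positive and 0 negative in edgeR's test (24 and 0 at an unadjusted p under 0.05, 20 and 0 by DESeq2's Wald test), with a median of 0.62 in footprints and 0.20 in RNA, where 6 were called positive. The median footprint change was -0.14 in ∆ntd cells and -0.72 in WT cells, the less negative of them in ∆ntd cells. COX12, a subunit of cytochrome c oxidase, had 242 and 535 CPM in ∆ntd cells in urea, 146 and 156 in ∆ntd cells in SD, 92.9 and 87.7 in WT cells in urea and 170.2 and 145 in WT cells in SD. The ∆ntd cultures in urea stood above all others and the WT cultures in urea below them. Its interaction was 2.16 (standard error 0.44, adjusted p = 0.0316). INH1, the inhibitor of the ATP synthase, had 84.5 and 165 CPM in ∆ntd cells in urea, 78.4 and 75.7 in ∆ntd cells in SD, 38.0 and 42.2 in WT cells in urea and 133 and 110.5 in WT cells in SD. In WT cells urea lay below SD and in ∆ntd cells above it, and the interaction was 2.30 (standard error 0.40, adjusted p = 0.022).

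Of 6 tested genes of mitochondrial DNA, COB, COX3 and COX2 were called positive. COX3 had 2.36 and 2.55 CPM in ∆ntd cells in urea, 2.00 and 1.85 in ∆ntd cells in SD, 2.27 and 2.64 in WT cells in urea and 8.23 and 10.3 in WT cells in SD. WT cells in SD stood above all other groups, which lay between 1.85 and 2.64 CPM, and the interaction was 2.27 (standard error 0.40, adjusted p = 0.022). Its TE interaction was 1.75 (adjusted p = 0.0363). COB had 1.50 and 3.28 CPM in ∆ntd cells in urea, 0.763 and 1.56 in ∆ntd cells in SD, 1.44 and 1.32 in WT cells in urea and 5.51 and 6.44 in WT cells in SD, and an interaction of 2.95 (standard error 0.69, adjusted p = 0.0418), but shares 64.6% of its windows with other reading frames of its locus. Mitochondrial footprints were few, with 8 to 22 counts of COX3 in each library outside WT in SD. DESeq2's Wald test called 0 of these genes, and only 1 of the 6 could be tested with at least 10 counts asked of every library. Of the nuclear list 26 positive and 7 negative calls were made without ∆ntd urea culture 1, 34 and 0 without ∆ntd urea culture 2 and 0 without any other culture. The adjusted p then reached 0.156 for COX12, 0.143 for INH1, 0.143 for COX3 and 0.186 for COB. With a trend on coding length removed, 2 positive calls of the nuclear list were left.

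Heat-shock and stress genes were mostly on the positive side. Of 33 tested heat-shock proteins and chaperones 10 were called positive and 1 negative, with a median of 0.49 (0.25 without ∆ntd urea culture 2) in footprints and 0.06 in RNA. HSP12, a membrane-associated stress protein, had 5011 and 8321 CPM in ∆ntd cells in urea, 2882 and 3069 in ∆ntd cells in SD, 832 and 933 in WT cells in urea and 1427 and 1116 in WT cells in SD. The ∆ntd cultures in urea stood above all others, and ∆ntd cells in SD stood above WT cells. The interaction was 1.69 (standard error 0.33, adjusted p = 0.0287). HSP30, a stress protein of the plasma membrane, had 369.6 and 669 CPM in ∆ntd cells in urea, 62.5 and 64.0 in ∆ntd cells in SD, 39.0 and 35.0 in WT cells in urea and 15.9 and 14.7 in WT cells in SD. It rose in both strains, by 3.03 in ∆ntd cells and 1.28 in WT cells, with an interaction of 1.76 (standard error 0.36, adjusted p = 0.0318). SSA3, a stress-induced Hsp70, was the negative call, at 1.50 and 2.55 CPM in ∆ntd cells in urea, 8.97 and 8.46 in ∆ntd cells in SD, 2.89 and 3.96 in WT cells in urea and 4.31 and 4.11 in WT cells in SD. It had an interaction of -1.84 (standard error 0.42, adjusted p = 0.0405), with an RNA interaction of 0.12 (adjusted p = 0.754) and a TE interaction of -1.95 (adjusted p = 0.0494). In trehalose and glycogen metabolism 5 of 18 were called positive and 1, PGM1, negative. TPS1, trehalose phosphate synthase, had an interaction of 1.12 (standard error 0.26, adjusted p = 0.0405). Among 30 enzymes of oxidative defence 6 were called positive and 2 negative, with SOD1, the cytosolic superoxide dismutase, at 1.19. Without a culture that is not ∆ntd in urea, 0 genes of these 3 lists kept a call, with adjusted p-values of up to 0.155 for HSP12, 0.152 for HSP30, 0.163 for SSA3, 0.177 for TPS1 and 0.199 for SOD1.

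Several of the most positive interactions belonged to short genes outside these lists. COQ21 had 84.2 and 229.9 CPM in ∆ntd cells in urea, 40.8 and 41.0 in ∆ntd cells in SD, 17.3 and 19.8 in WT cells in urea and 29.1 and 32.7 in WT cells in SD. BUD31, a splicing factor, had 36.2 and 81.2 CPM in ∆ntd cells in urea, 20.6 and 22.4 in ∆ntd cells in SD, 13.004 and 11.2 in WT cells in urea and 22.2 and 19.2 in WT cells in SD. SFT1, a SNARE of Golgi transport, had 38.9 and 65.5 CPM in ∆ntd cells in urea, 16.0 and 18.7 in ∆ntd cells in SD, 14.7 and 11.9 in WT cells in urea and 19.2 and 21.0 in WT cells in SD. For all 3, both ∆ntd cultures in urea lay above every other culture, culture 2 far above culture 1. Their interactions were 2.67, 2.18 and 2.14, beside 2.34 for MNC1 and 2.30 for SOM1, a protein needed for the mitochondrial inner membrane peptidase. Coding lengths were 201 nt for COQ21, 294 nt for SFT1 and 474 nt for BUD31. Without a culture that is not ∆ntd in urea their adjusted p-values reached 0.18, 0.179, 0.143, 0.169 and 0.15, in that order of genes.

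Of the remaining lists most had few calls in either direction. Their counts are to be read beside the 4.92% of all genes tested that were called positive and the 3.44% called negative, and several lie near these shares. Hexose transporters had 3 negative calls among 10 (HXT2, HXT3 and HXT4), iron uptake genes 4 negative and 1 positive among 26, and genes of sulfate and methionine 4 negative and 1 positive among 33. The positive call among the sulfate and methionine genes was MET17, which by the study's methods is a marker on the plasmid that carries TIF3. Subunits of the proteasome (34 tested), of the CCT chaperonin and prefoldin (14) and histones (10) had 0 calls in edgeR's test. At an unadjusted p under 0.05 there were 11, 3 and 3 genes, beside 1544 of all 5286 genes tested. DESeq2's Wald test called 1 positive and 4 negative proteasome genes, 1 CCT gene and 1 histone gene, and RNA had 11, 4 and 2 negative calls. Genes of amino acid synthesis, on which Gcn4 acts, had 3 positive and 6 negative calls among 70. Enzymes of the TCA cycle had 3 of each among 23, and those of glycolysis and fermentation 2 of each among 25. Mitochondrial ribosomal proteins had 3 positive calls among 76. Along the secretory route, folding factors of the ER had 2 positive and 3 negative calls among 38, vesicle transport from ER to Golgi 1 of each among 40, the V-ATPase 2 positive and 1 negative among 18 and sterol synthesis 1 positive among 29. Genes of the actin cortex had 3 positive and 1 negative calls among 41, mRNA decay factors 2 positive and 1 negative among 35, and genes of osmotic stress and glycerol 1 positive and 3 negative among 30.

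ACT1, ADH4 and VBA2, given because the study used them, had interactions of 0.75, -0.91 and -0.95 that did not pass (adjusted p = 0.108, 0.198 and 0.321).

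**Figure D3:**
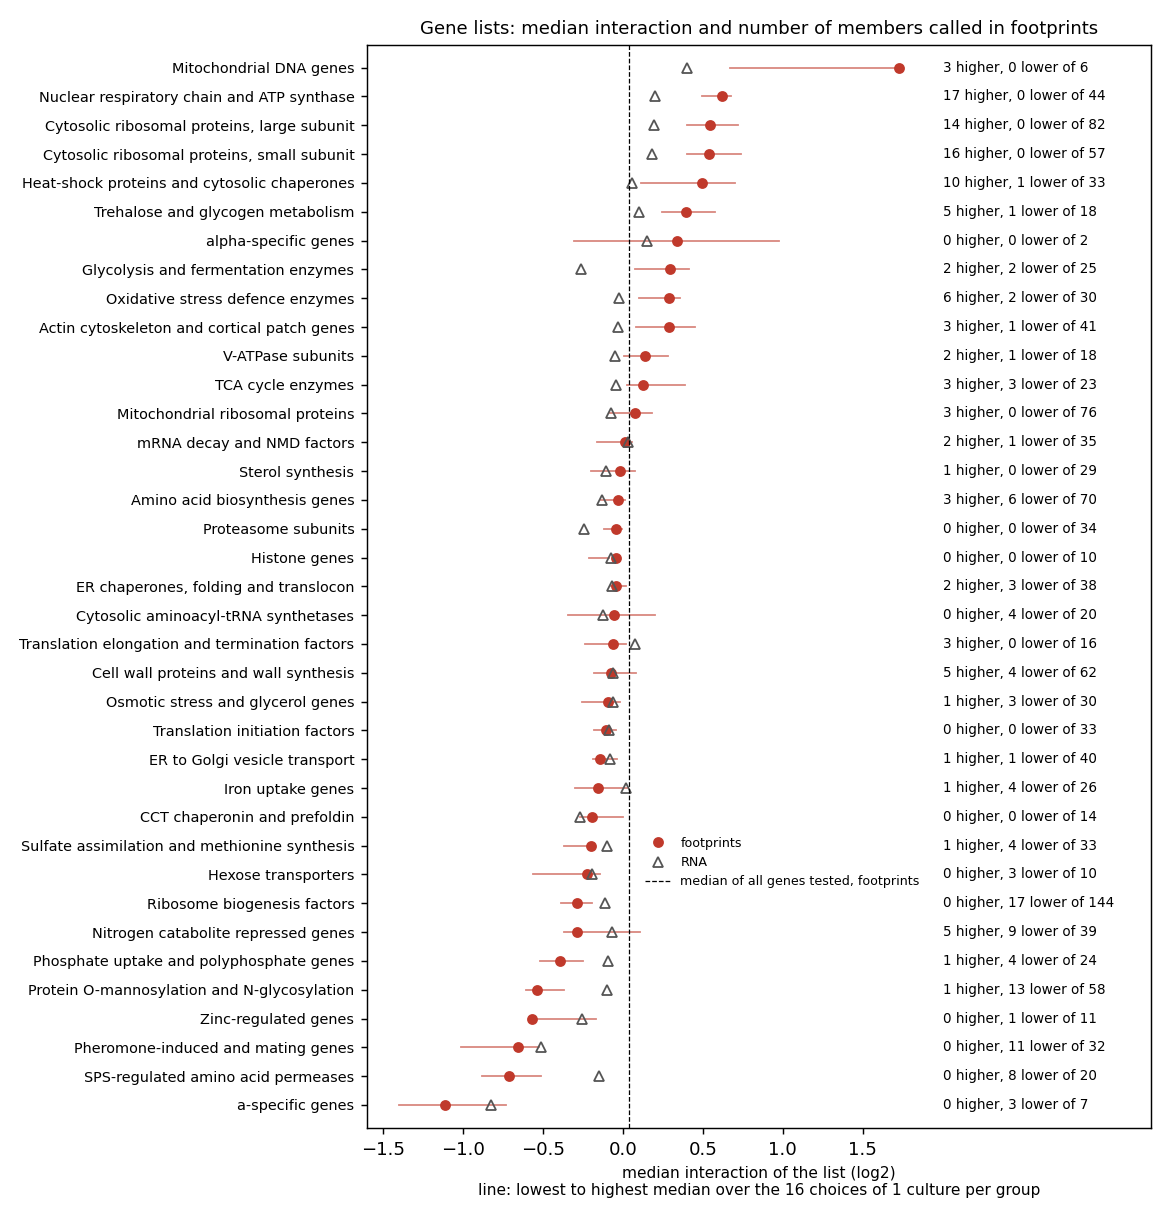
Median interaction of each of 37 gene lists in footprints (red circles) and in RNA (open triangles) on the log2 scale, with a red line from the lowest to the highest median over the 16 choices of 1 culture per group, and the number of members called in footprints at the right. The dashed line is the median of all genes tested, 0.04. Genes of mitochondrial DNA stand highest at 1.73 and a-specific genes lowest at -1.11.

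The RNA of the same cultures also carried a strain difference. The RNA interaction was positive in 240 genes, 4.37% of 5486 tested, and negative in 333 genes, 6.07%. Among the 260 genes with more footprints, 79 (30.4%) had an RNA call of the same direction and 0 of the opposite, and 230 had the same sign. Among the 182 with fewer footprints, 79 (43.4%) had an RNA call of the same direction and 1 of the opposite, and 162 had the same sign. Median RNA interactions were 0.30 and -0.36 beside footprint medians of 0.99 and -0.92. The spread between cultures was smaller in RNA, and 216 of the 573 RNA calls held whichever culture was left out. The TE interaction compares both assays in 1 fit of 16 libraries. It was positive in 14 genes, 0.267% of 5251 tested, and negative in 18 genes, 0.343%. That fit takes the 16 libraries as independent, although a Riboseq and an RNAseq library came from each culture. With a term for each culture, which respects this pairing, 0 genes were called, so each TE call given here rests on the unpaired fit.

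**Figure D4:**
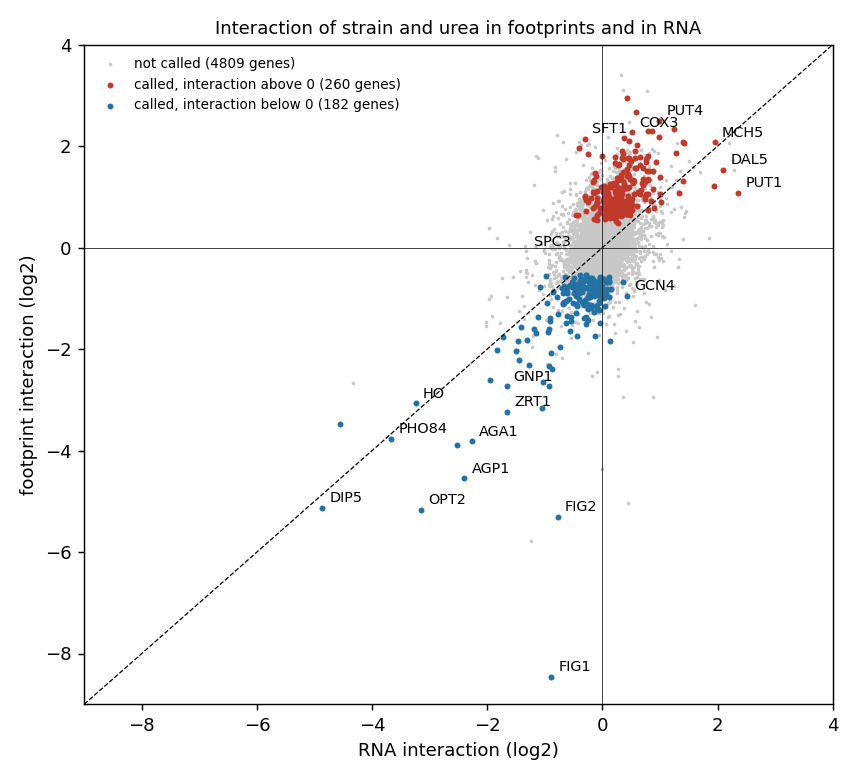
Each point is a gene tested in both assays, placed by its interaction in RNA (horizontal axis) and in footprints (vertical axis), both log2, with footprint calls in red and blue. Genes on the dashed line differ alike in both assays, as DIP5 with -4.87 in RNA and -5.12 in footprints, whereas FIG2 lies at -0.77 and -5.31.

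GCN4 was the 1 gene called in opposite directions. It encodes the activator of amino acid synthesis, whose translation is known to be held back by short reading frames ahead of its own. Its footprints stood at 41.6 and 54.2 CPM in ∆ntd cells in urea, 38.8 and 42.3 in ∆ntd cells in SD, 175 and 183 in WT cells in urea and 84.1 and 73.7 in WT cells in SD. The ∆ntd groups overlapped, and in WT cells both urea cultures lay above both SD cultures, which lay above all ∆ntd cultures. The RNA stood at 942 and 904 CPM in ∆ntd cells in urea, 790.5 and 777 in ∆ntd cells in SD, 576 and 631 in WT cells in urea and 677 and 699.6 in WT cells in SD. Here the ∆ntd groups lay above the WT groups, with more RNA in urea than in SD in ∆ntd cells and less in WT cells. The footprint interaction was -0.95 (standard error 0.20, adjusted p = 0.0355), the RNA interaction 0.42 (adjusted p = 0.00135) and the TE interaction -1.38 (standard error 0.22, adjusted p = 0.0286). Without a culture that is not ∆ntd in urea, the footprint p reached 0.162 and the TE p 0.23, while the RNA call held in all 8 settings.

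A TE call also came without a footprint call. SPC3, a subunit of signal peptidase, had 64.0 and 52.7 CPM in ∆ntd cells in urea, 65.9 and 74.962 in ∆ntd cells in SD, 46.9 and 43.9 in WT cells in urea and 50.8 and 53.1 in WT cells in SD. Its RNA stood at 78.1 and 70.0 CPM in ∆ntd cells in urea, 145 and 167 in ∆ntd cells in SD, 80.2 and 82.4 in WT cells in urea and 72.2 and 64.0 in WT cells in SD. RNA differed by an interaction of -1.32 (adjusted p = 2.58e-07) while footprints gave -0.07 (adjusted p = 0.825), a footprint value that turned to 0.038 without ∆ntd urea culture 2 and to 0.023 without ∆ntd SD culture 2. The TE interaction was 1.25 (adjusted p = 0.0399). LYS14, the activator of lysine synthesis genes, and MRX3, a mitochondrial protein, had TE interactions of 1.44 and 1.60, and SFT1 had 2.44, the most positive of the TE calls (adjusted p = 0.0414, 0.0494 and 0.0441). The 32 TE calls gain no support from fits without a ∆ntd urea culture, where the spread of that group does not enter the test. Without any 1 of the other 6 cultures 0 were left in 5 cases, where 538 to 691 genes had an unadjusted p under 0.05, and 1 was left without WT SD culture 2.

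Called genes also shared a property that the interaction did not use, coding length. The median coding length was 768 nt for the genes with positive calls and 1894.5 nt for those with negative calls, against 1257 nt over all tested genes. Across the 5272 tested genes with a known length, the footprint interaction and length had a Spearman's rho of -0.29, as a description over genes that share the same 8 libraries. In RNA rho was -0.03. The median footprint interaction was 0.38 in the shortest of 10 length classes (78 to 462 nt), of which 13.8% were called positive and 0.379% negative, and -0.23 in the longest (2844 to 14733 nt), of which 1.14% were called positive and 9.52% negative. By strain, rho of the footprint change with length was -0.10 in ∆ntd cells and 0.32 in WT cells. Replicate cultures also differed with length, with a rho of 0.145 for culture 2 over culture 1 in WT cells in SD. That rho was -0.018 in ∆ntd cells in urea, -0.00426 in ∆ntd cells in SD and -0.052 in WT cells in urea. What part such differences between libraries have in the trend was not tested. In WT cells in SD the median TE was 0.97 for the genes with positive calls and 0.491 for those with negative calls, against 0.582 over all. Unlike coding length, this TE holds the WT SD footprints that also enter the interaction. Its difference between the calls is therefore not independent of how they were chosen. With a loess trend on coding length taken out of each library, a step chosen once the results were known, 139 genes were called, 52 positive and 87 negative. The part of length in the differences between lists was not tested further.

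**Figure D5:**
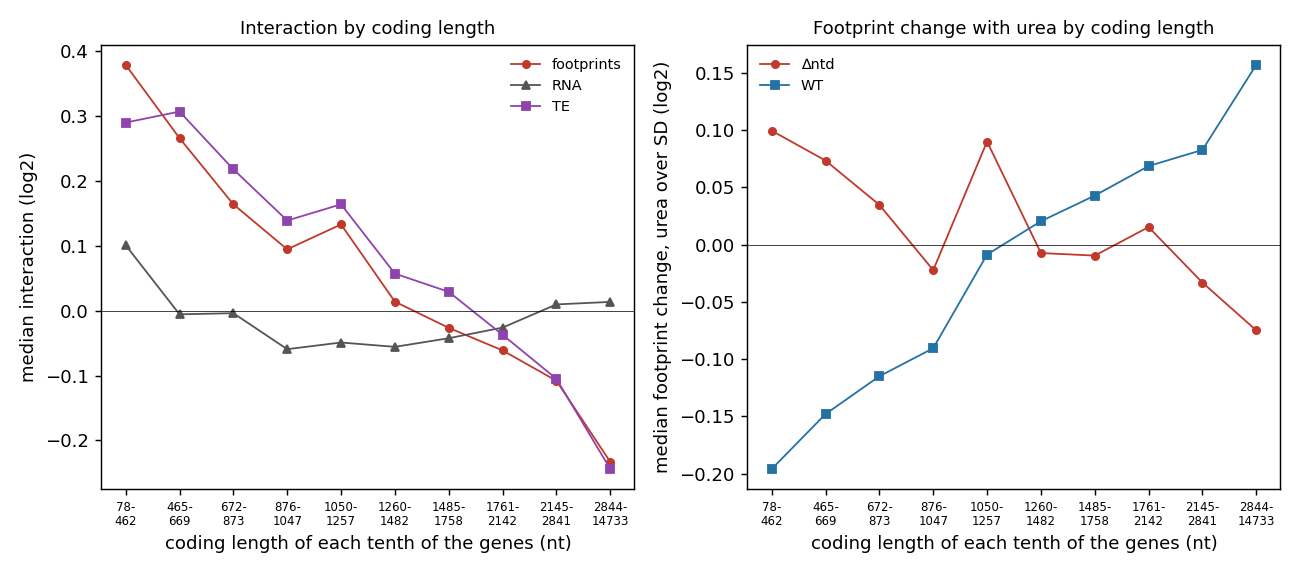
Left, median interaction on the log2 scale in footprints, RNA and TE for 10 classes of the tested genes by coding length in nt, from the shortest to the longest. Right, median log2 footprint change with urea in ∆ntd and in WT cells for the same classes. The footprint medians decline from 0.38 to -0.23 while those of RNA stay between -0.06 and 0.10.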

How the data were processed

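Riboseq and RNAseq libraries were analysed from 8 cultures. Linkers were trimmed by the authors with cutadapt 1.1. Bowtie 1.1 served to take out non-coding RNA, and the authors aligned other reads to the yeast transcriptome with Bowtie 0.1.3 (versions per the submitters' processing notes) and deposited counts of uniquely mapped reads per gene, without normalization. Unique mapping leaves counts of near-identical genes uncertain. Mismatches allowed and any filter on read length after sequencing are not given in the sources used here. The deposited table also holds the authors' fold changes and false discovery rates, which were not used.

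Counts were fitted in R 4.3.3 with edgeR 4.0.16 (filterByExpr, TMM within each assay, glmQLFit and glmQLFTest, a mean for each of 4 groups, prior count 0.125) over 8 libraries an assay, and over 16 libraries for TE. Adjustment was by Benjamini-Hochberg over all genes tested, with a threshold of 0.05. The precision of a count is limited by its depth, and 3 counts per library served as the floor. With 2 cultures per group, p-values measure the spread between these cultures. Alternatives were other scalings, DESeq2 1.42.0, limma 3.58.1 with a variance for each group, other filters, each culture left out, the replicate number as a block and, added after the data were seen, removal of a coding length trend.

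Named genes are the 10 largest positive and 10 largest negative called footprint interactions with 1 sign in all 16 choices of 1 culture per group (log2 of CPM + 1) and at least 20 mean footprints, the 2 largest called members per direction of each of 37 gene lists (or the member with the smallest p), 8 genes taken from the study, and the 5 largest called TE interactions per direction. FUS1, PRM1, DUR3, GAP1 and PDH1, and genes named without values, were added after their values were seen. The members and lists were chosen with earlier results of these data known. Coordinates and sequences are from RefSeq R64, a copy of the yeast genome that may differ from the release used by the authors, and 5272 of the 5286 tested genes were matched by systematic name.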

Additional observations from a re-analysis of the deposited data

Results flagged for a closer look

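These results are given because the urea response differed between ∆ntd and WT cells by a test of the difference itself. The footprint interaction passed in 442 genes, the RNA interaction in 573 and the TE interaction in 32. Among single genes chosen for description, negative footprint interactions were -5.31 for FIG2, -5.16 for OPT2, -5.12 for DIP5, -4.55 for AGP1, -3.81 for AGA1, -3.76 for PHO84, -3.24 for ZRT1, -3.15 for PHO89, -3.06 for HO, -2.73 for GNP1 and -2.73 for AGA2, and GCN4 stood at -0.95. The value of OPT2 is a fitted one against a group at the floor. Positive ones were 2.95 for COB, 2.67 for COQ21, 2.50 for PUT4, 2.34 for MNC1, 2.30 for SOM1, 2.30 for INH1, 2.27 for COX3, 2.18 for BUD31, 2.16 for COX12 and 2.14 for SFT1. TE interactions that passed were -4.52 for FIG2, -2.15 for AGP1, -1.95 for SSA3, -1.58 for ZRT1, -1.38 for GCN4, 1.25 for SPC3, 1.44 for LYS14, 1.60 for MRX3, 1.75 for COX3 and 2.44 for SFT1. A further 70 genes named from the lists had a called footprint interaction.

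With 2 cultures per group, no test for a single outlying culture was made. The spread between both ∆ntd cultures in urea moves with many of the positive calls, and its part in them was not tested.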

How the results depend on the processing

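The footprint calls kept their sign in each alternative in which they were tested (255 of 260 positive and 173 of 182 negative calls had enough reads to be tested with at least 10 counts in every library). DESeq2's Wald test called 695 genes, limma with a variance for each group 668 (469 positive and 199 negative), the replicate block 138 (69 and 69) and removal of the length trend 139. Of the 442 calls, 372 remained with group variances. Leaving out 1 culture gave 12 to 2589 calls, the highest counts without ∆ntd urea culture 1 (2589) and culture 2 (1527). DESeq2 size factors gave 403 (201 and 202), library totals 516 (110 and 406), no filter 469 and at least 10 counts 436. In RNA, DESeq2's Wald test called 264, and leaving out 1 culture gave 317 to 508, the lowest without either WT SD culture (342 and 317) and without ∆ntd SD culture 1 (373). Library totals gave 310 positive and 257 negative RNA calls, against 240 and 333. In TE, library totals called 141 (5 and 136), DESeq2's Wald test 106 (58 and 48), limma with group variances 221 (184 and 37), DESeq2 size factors 22 (6 and 16), and a block for each culture 0, with 944 genes at an unadjusted p under 0.05. Leaving out 1 culture gave 0 to 1514 TE calls. Of 1671 comparisons of named genes with alternatives, 987 kept direction and side of the threshold, 655 lost the call, 25 gained one and 4 turned sign. These were MF(ALPHA)1, at -0.50 without ∆ntd urea culture 2 and -0.17 without WT urea culture 1, and SPC3, at 0.038 without ∆ntd urea culture 2 and 0.023 without ∆ntd SD culture 2. Over all cultures left out, these footprint interactions ran from -0.50 to 2.02 and from -0.24 to 0.038. The causes of these changes were not tested, except that a fit without a culture has fewer residual degrees of freedom. Without a ∆ntd urea culture it also lacks the spread within that group. The differences of culture 1 from culture 2 were compared between groups. In footprints those of ∆ntd cells in urea and WT cells in SD ran in opposite directions, with a correlation of -0.359 whose cause was not tested. The other pairs of groups had correlations of -0.0374 to 0.0633 in footprints, and all pairs -0.0238 to 0.0552 in RNA. Same-numbered cultures thus did not deviate in the same direction, and the replicate numbers were not taken to pair them. The replicate block gave 581 RNA calls and 26 TE calls. Depth limits genes with few footprints in WT cells in urea, where 3067506 to 4803862 were counted.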
